A study of Mus musculus with 6 samples.

Results

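The interferon regulatory factors (IRFs) are transcription factors that read and relay interferon signals. The 8 family members Irf1, Irf2, Irf3, Irf4, Irf5, Irf7, Irf8 and Irf9 were taken by gene symbol from a table of 55487 genes, and 1 further family member was not analysed here. All 8 passed the filter on low counts. RNA had been sequenced from 6 subcutaneous tumors in immunocompetent male BALB/c mice, 3 from control mice and 3 from mice given IFN-γ. Each tumor had grown from 1000000 implanted cells of CT26.WT, a mouse colon carcinoma line of that strain, labelled genotype WT in both groups. Mice were bought at an age of 4 weeks and had their own immune system. Treatment was intravenous, by tail vein at intervals of 48 h: 100 µL of a 100 ng/ml IFN-γ solution for the IFN-γ group, and PBS for the controls. The study asked through which genes IFN-γ acts on such tumors, and IRF1 is the factor it followed up.

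IRFs share a DNA-binding domain that recognises repeats of GAAA, the core of the interferon-stimulated response element (ISRE). IRF1 is made in response to IFN-γ and activates such genes, and IRF2 binds the same sites and holds IRF1 back. IRF3 and IRF7 are switched on by phosphorylation once a cell senses foreign nucleic acid, and they drive type I interferon genes. IRF9 is the DNA-binding subunit of ISGF3, the complex that type I interferon activates. IRF5 acts downstream of Toll-like receptors in macrophages. IRF8 is needed for monocytes, macrophages and cDC1, the dendritic cells that cross-present antigen, and IRF4 works in plasma cells, activated T cells and other dendritic cells.

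Interferons act on IRF genes through short motifs in their promoters, so the promoter windows that held such motifs are printed, with 1 that held none. RefSeq (GRCm38.p6) gave 11 windows for the 8 members, each from 250 bases before to 50 bases after a start site. Both strands were searched for 4 motifs. These were the gamma-activated site (GAS, TTCNNNGAA), through which IFN-γ acts, the ISRE core (GAAA, any 2 bases, GAAA), the ETS-IRF element (GGAA, any 2 bases, GAAA), which can overlap the ISRE core, and an NF-κB site (GGG, any 2 bases, TTTCC). In the sequences, written 5′ to 3′ on the gene's strand, capitals mark the motifs found. The Irf7 window had no match and is shown for contrast.
Irf1 (chr11:53769764-53770063, plus strand): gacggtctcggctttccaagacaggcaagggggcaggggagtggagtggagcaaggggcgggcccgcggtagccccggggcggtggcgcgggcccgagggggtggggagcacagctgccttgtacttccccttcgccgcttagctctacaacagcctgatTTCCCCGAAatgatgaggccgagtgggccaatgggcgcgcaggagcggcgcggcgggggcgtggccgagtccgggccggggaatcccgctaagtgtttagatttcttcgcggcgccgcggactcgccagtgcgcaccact
Irf8 (chr8:120736108-120736407, plus strand): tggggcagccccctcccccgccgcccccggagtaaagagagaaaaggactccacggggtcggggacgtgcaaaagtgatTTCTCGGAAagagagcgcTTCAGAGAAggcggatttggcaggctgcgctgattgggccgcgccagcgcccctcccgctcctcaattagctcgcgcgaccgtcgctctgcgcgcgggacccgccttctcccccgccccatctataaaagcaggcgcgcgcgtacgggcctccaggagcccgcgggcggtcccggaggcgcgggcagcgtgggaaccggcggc
Irf2 (chr8:46739495-46739794, plus strand): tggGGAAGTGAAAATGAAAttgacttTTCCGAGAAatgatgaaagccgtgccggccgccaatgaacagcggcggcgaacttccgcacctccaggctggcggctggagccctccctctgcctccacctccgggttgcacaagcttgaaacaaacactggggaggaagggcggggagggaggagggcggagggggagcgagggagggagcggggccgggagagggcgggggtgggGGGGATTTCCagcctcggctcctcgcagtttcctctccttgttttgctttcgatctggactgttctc
Irf7 (chr7:141266375-141266674, minus strand): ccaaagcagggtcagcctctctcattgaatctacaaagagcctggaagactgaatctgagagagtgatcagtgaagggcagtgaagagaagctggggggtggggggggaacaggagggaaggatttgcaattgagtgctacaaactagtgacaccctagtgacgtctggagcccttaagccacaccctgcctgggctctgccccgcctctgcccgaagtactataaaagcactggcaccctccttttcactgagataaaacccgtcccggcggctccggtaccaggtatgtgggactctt

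Irf1 had 1 GAS match, from -90 to -82 relative to the start site. Irf8 had 2, at -171 to -163 and at -153 to -145. Irf2 had 1 GAS match at -224 to -216, and with it an ISRE core at -241 to -232, an ETS-IRF element at -247 to -238 that overlaps this core, and an NF-κB match at -17 to -8. The second windows of Irf1 and Irf8 and the windows of Irf3, Irf4, Irf5, Irf7 and Irf9 had none of the 4. Of all 32851 promoter windows, 8.3% held the GAS letters, 3.44% the ISRE core, 2.72% the ETS-IRF element and 1.63% the NF-κB letters. A match of letters is not evidence of binding. Only these exact letters were searched, so a window without a match can still hold a variant of the site.

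The libraries held 15759300 to 17559680 counts on genes, and 3 counts, the limit that a count of 0 allows, stood for 0.169 to 0.188 CPM (counts scaled to a library size of 1000000, with TMM factors), counting error only. IFN-γ tumor 3 stood apart from the other tumors of its group. Tests of the members, and of genes named from lists of their activators, partners and targets, are therefore given with and without it. Ratios and marker sums are given by tumor or by range. Its summed T cell markers reached 30.2 CPM, against 43.5 to 58.7 in the controls and 71.7 and 95.2 in IFN-γ tumors 1 and 2. Its skin keratinocyte markers reached 71.7 CPM, against 2.75 to 12.6 in the other 5 tumors. Of the 10 colon epithelium markers, Krt20 had 1846 to 4375 counts and Krt18 105 to 184, whereas Epcam had 1 to 15 and Cdx2 was at 0 in every tumor. In these bulk samples, fewer cells of a type and less RNA per cell cannot be told apart.

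With all 6 tumors none of the 8 members passed the test. Without IFN-γ tumor 3, Irf1, Irf5 and Irf7 were 1.46-fold to 1.74-fold above the controls, a rise that tumor did not share. No member was called lower in either fit, and leaving out any other single tumor gave 0 members higher. IFN-γ tumor 3 was singled out from these same data, so p-values of the fit without it are no independent test of a rise. With all 6, edgeR called 12 of 15114 genes higher (0.0794%) and 5 lower (0.0331%), and 0 of the 8 members in either direction. DESeq2 and limma-voom also called 0 members higher. In edgeR 2 members, Irf1 and Irf5, had an unadjusted p under 0.05, as had 1539 of the 15114 genes tested. Without IFN-γ tumor 3, edgeR called 381 of 15487 genes higher (2.46%) and 112 lower (0.723%), and 3 of the 8 members higher. The members' median log2 fold change was 0.32 with all 6 tumors and 0.48 without that tumor, beside 0.0015 and -0.016 over all genes tested.

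**Figure D1:**
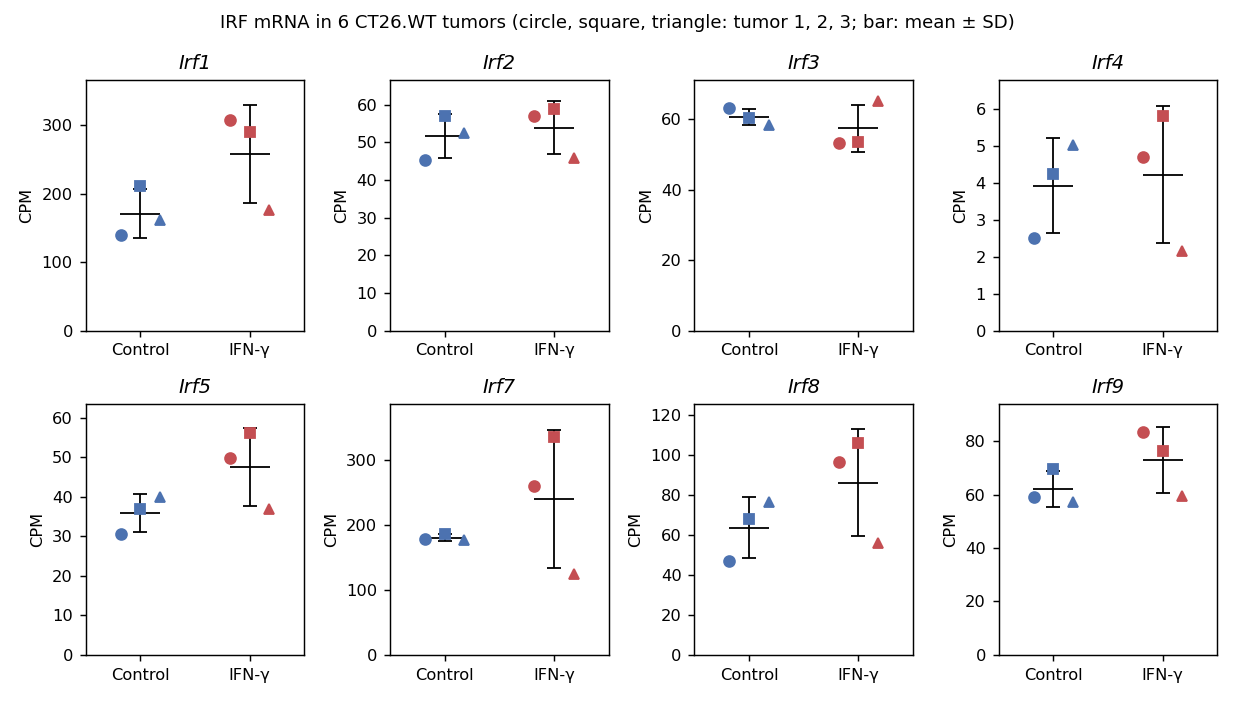
CPM (y axis, linear from 0) of each IRF gene in the control tumors (blue) and the IFN-γ tumors (red), with circle, square and triangle for tumors 1, 2 and 3 and bars for mean ± SD (n = 3). For Irf1, Irf5, Irf7, Irf8 and Irf9 the red circle and square lie above all blue points, and the red triangle, IFN-γ tumor 3, lies below the highest control.

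Irf1, the activator that IFN-γ induces, had, with Irf7, the highest level per length of the family. Control tumors 1, 2 and 3 had 140.4, 211 and 162 CPM. IFN-γ tumors 1, 2 and 3 had 308, 290.0 and 177 CPM. IFN-γ tumors 1 and 2 were above every control, and IFN-γ tumor 3 lay within the control range. The means were 171 ± 36.3 CPM in the control group and 258 ± 71.3 CPM in the IFN-γ group (SD, n = 3). The log2 fold change was 0.60 ± 0.22 (SE; edgeR, adjusted p = 0.40) with all 6 tumors. Irf1 rose by 0.80 ± 0.15 on the log2 scale, or 1.74-fold, without IFN-γ tumor 3 (edgeR, adjusted p = 0.030). Across all alternatives the change ran from 0.45 to 0.82 and the adjusted p from 5.1e-06 to 0.81. The gene (ENSMUSG00000018899) lies on the plus strand at chr11:53770014-53778374 (GRCm38), and 135 of its exon bases overlap the antisense gene Gm17334, which had 2 to 9 counts in the tumors against 2245 to 5312 for Irf1.

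Irf2, the competitor of Irf1 at shared sites, was nearly level across the tumors. It had 45.5, 57.2 and 52.6 CPM in the control tumors and 57.1, 58.9 and 45.9 CPM in the IFN-γ tumors. The groups overlapped, and IFN-γ tumor 3 was close to the lowest control. Its log2 fold change was 0.06 ± 0.12 (SE; edgeR, adjusted p = 0.91) with all 6 tumors and 0.16 ± 0.10 (edgeR, adjusted p = 0.54) without IFN-γ tumor 3. The change was slightly below 0 when control tumor 1 or IFN-γ tumor 2 was left out (-0.024 and -0.0087). Irf2 (ENSMUSG00000031627, plus strand, chr8:46739732-46847458) shares no exon bases with another gene.

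The log2 ratio of Irf1 to Irf2, from CPM plus 0.5 in each tumor, was 1.62, 1.88 and 1.61 in the control tumors. It was 2.42, 2.29 and 1.93 in the IFN-γ tumors. Here the groups did not overlap, since IFN-γ tumor 3 was also above every control, by a small margin over control tumor 2. The control mean was 1.70 ± 0.15 and the IFN-γ mean 2.22 ± 0.25 (SD, n = 3), 0.51 higher. This ratio was described and not tested, and since CPM is not per length only its change between tumors can be read.

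Irf3 and Irf7 respond to nucleic acid sensing, Irf3 from a standing pool and Irf7 from a pool that interferon enlarges. The activating step of both is phosphorylation of the protein, which RNA counts do not measure. Irf3 had 63.0, 60.3 and 58.5 CPM in the control tumors and 53.3, 53.5 and 65.2 CPM in the IFN-γ tumors. The order was turned, with IFN-γ tumors 1 and 2 below every control and IFN-γ tumor 3 above every control. For Irf3 the log2 fold change was -0.08 ± 0.096 (SE; edgeR, adjusted p = 0.84) with all 6 tumors and -0.19 ± 0.078 (edgeR, adjusted p = 0.27) without IFN-γ tumor 3. It was the only one of the 8 members with a fold change below 0 in both fits.

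Irf7 had even controls and widely spread IFN-γ tumors. The control tumors had 178, 186 and 178 CPM, a mean of 181 ± 4.94 (SD, n = 3). The IFN-γ tumors had 261, 335 and 125 CPM, a mean of 240.4 ± 107 (SD, n = 3). Of these, IFN-γ tumors 1 and 2 were above every control and IFN-γ tumor 3 was below every control. Its log2 fold change was 0.41 ± 0.29 (SE; edgeR, adjusted p = 0.69) with all 6 tumors. Irf7 rose by 0.71 ± 0.11 on the log2 scale, or 1.64-fold, when IFN-γ tumor 3 was left out (edgeR, adjusted p = 0.016), the smallest adjusted p of the 8 members in that fit. Alternatives gave changes of 0.093 to 0.72 and adjusted p-values of 8.9e-08 to 0.98. The lowest of these changes came without IFN-γ tumor 2.

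The log2 ratio of Irf7 to Irf3 was 1.49, 1.62 and 1.60 in the control tumors and 2.28, 2.64 and 0.94 in the IFN-γ tumors. IFN-γ tumors 1 and 2 were above the controls and IFN-γ tumor 3 below them, as for Irf7 itself. Irf3 (ENSMUSG00000003184, plus strand, chr7:44997648-45002848) shares 88 exon bases with the antisense gene Bcl2l12, which had 143 to 228 counts. Irf7 (ENSMUSG00000025498, minus strand, chr7:141262706-141266481) shares 45 exon bases with the antisense gene Phrf1, which had 1520 to 1904 counts. Whether the counting used strand is not given in the sources used here, so these counts are uncertain to the extent of such shared bases.

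Irf9, the DNA-binding subunit of ISGF3, had 59.1, 69.6 and 57.3 CPM in the control tumors. Its levels in the IFN-γ tumors were 83.4, 76.4 and 59.3 CPM. Again IFN-γ tumors 1 and 2 were above every control and IFN-γ tumor 3 lay among the controls. For Irf9 the log2 fold change was 0.24 ± 0.13 (SE; edgeR, adjusted p = 0.60) with all 6 tumors and 0.36 ± 0.10 (edgeR, adjusted p = 0.12) without IFN-γ tumor 3. Irf9 (ENSMUSG00000002325, plus strand, chr14:55603571-55610030) shares 123 exon bases with Rnf31 on the same strand, which had 613 to 848 counts.

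Irf5, which acts in macrophages, had 30.6, 37.0 and 40.0 CPM in the control tumors and 49.7, 56.1 and 36.9 CPM in the IFN-γ tumors. IFN-γ tumors 1 and 2 were above every control, and IFN-γ tumor 3 was close to control tumor 2. The log2 fold change was 0.41 ± 0.16 (SE; edgeR, adjusted p = 0.45) with all 6 tumors. In the other 5 tumors Irf5 rose by 0.55 ± 0.12, or 1.46-fold, just inside the threshold (edgeR, adjusted p = 0.049). Over the alternatives the adjusted p ran from 0.0051 to 0.86. Irf5 (ENSMUSG00000029771, plus strand, chr6:29526625-29541871) is the member with most shared sequence: 411 bases, or 14.1% of its exons, are antisense to Tnpo3, which had 3243 to 3763 counts against 490 to 919 for Irf5. If strand was not used in counting, reads from these bases cannot be assigned to either gene. Tnpo3 itself had a log2 fold change of -0.04 with all 6 tumors and -0.08 without IFN-γ tumor 3 (edgeR, adjusted p = 0.89 and 0.68). How much the overlap bears on the Irf5 value was not tested.

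Irf8, the factor of monocytes, macrophages and cDC1, varied more among the controls. It had 46.8, 67.9 and 76.3 CPM in the control tumors and 96.3, 106 and 55.7 CPM in the IFN-γ tumors. Both IFN-γ tumors 1 and 2 were above every control, and IFN-γ tumor 3 lay between control tumors 1 and 2. For Irf8 the log2 fold change was 0.43 ± 0.25 (SE; edgeR, adjusted p = 0.61) with all 6 tumors and 0.66 ± 0.17 without IFN-γ tumor 3. That last value did not pass in edgeR (adjusted p = 0.089) or in limma-voom (adjusted p = 0.078) and passed in DESeq2 (adjusted p = 0.0041). Its adjusted p reached 0.94 when IFN-γ tumor 2 was left out. Irf8 (ENSMUSG00000041515) lies on the plus strand at chr8:120736358-120756694.

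Irf4 was the scarcest member, with 40, 75 and 88 counts in the control tumors and 81, 95 and 35 in the IFN-γ tumors. These were 2.50, 4.23 and 5.03 CPM and 4.70, 5.80 and 2.16 CPM. The groups overlapped, and IFN-γ tumor 3 was the lowest of the 6 tumors. Its log2 fold change was 0.11 ± 0.39 (SE; edgeR, adjusted p = 0.96) with all 6 tumors and 0.41 ± 0.30 (edgeR, adjusted p = 0.58) without IFN-γ tumor 3. Its sign turned without control tumor 1 (-0.13) or IFN-γ tumor 2 (-0.19). A change in Irf4 of the size fitted for Irf1 would lie within 2 of its standard errors with all 6 tumors. Irf4 (ENSMUSG00000021356) lies on the plus strand at chr13:30749226-30766976.

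The log2 ratio of Irf8 to its close paralog Irf4 was 3.98, 3.85 and 3.80 in the control tumors. It was 4.22, 4.08 and 4.40 in the IFN-γ tumors. With the pseudocount of 0.5 CPM all IFN-γ tumors were above all controls. IFN-γ tumor 3 was the highest, where Irf4 was lowest and Irf8 lay within the control range. This separation depended on the pseudocount, since Irf4 was scarce. In plain CPM, control tumor 1 (Irf8 46.8, Irf4 2.50) had a larger ratio than IFN-γ tumor 2 (106 and 5.80), so the groups overlapped. The mean difference was 0.36, and it was not tested.

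**Figure D2:**
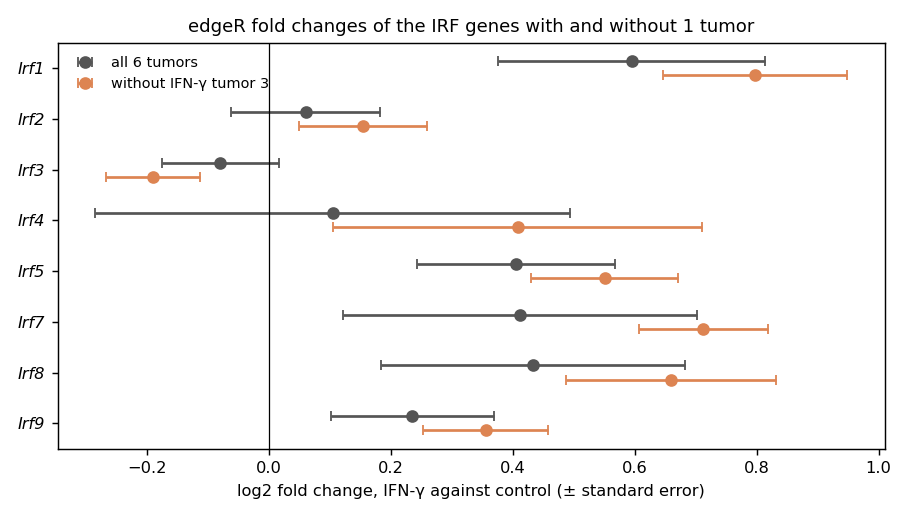
edgeR log2 fold change (x axis, IFN-γ against control, bars ± SE) of each IRF gene with all 6 tumors (grey) and without IFN-γ tumor 3 (orange). Every orange point lies farther from 0 than the grey point of its gene, and Irf3 is alone to the left of 0, at -0.08 and -0.19.

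No member had all 3 IFN-γ tumors above all 3 controls, against 7.62% of the 15114 genes tested. In IFN-γ tumors 1 and 2 alone, 5 of the 8 members (Irf1, Irf5, Irf7, Irf8 and Irf9) were above every control, against 18.1% of the 15487 genes tested, and Irf3 was below every control, against 15.6%. In log2 terms, IFN-γ tumor 3 differed from the control mean by -0.68 for Irf4 and -0.53 for Irf7. For the other 6 members that difference ran from -0.16 for Irf2 to 0.11 for Irf3. The mean of IFN-γ tumors 1 and 2 stood farthest above IFN-γ tumor 3 for Irf7, by 1.24, and for Irf4, by 1.10. This gap was 0.85 for Irf8, 0.76 for Irf1, 0.51 for Irf5, 0.42 for Irf9 and 0.33 for Irf2, and -0.28 for Irf3.

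Levels of different members were compared as CPM per kilobase of annotated exon (GENCODE M21). Irf7 and Irf1 led the control group, with means of 47.9 ± 1.31 and 43.0 ± 9.13 CPM per kilobase (SD, n = 3). Their ranges overlapped, 47.0 to 49.4 for Irf7 and 35.3 to 53.1 for Irf1, so their order could not be told. Irf3 followed at 17.6 ± 0.668, apart from both neighbours. Irf5 (12.3 ± 1.65), Irf9 (11.5 ± 1.24), Irf8 (9.02 ± 2.16) and Irf2 (6.99 ± 0.798) each overlapped the next in order. Irf4 was far below, at 0.799 ± 0.263.

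The same order held in the IFN-γ group except at the top, where Irf1 (65.0 ± 17.9 CPM per kilobase) came before Irf7 (63.7 ± 28.2), again with overlapping ranges. Irf3, at 15.5 to 18.9, overlapped Irf5, at 12.7 to 19.3. Irf4 stayed lowest, at 0.441 to 1.18 CPM per kilobase. Exon lengths came from every annotated transcript together, which lowers the level of genes with long, rarely used exons.

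**Figure D3:**
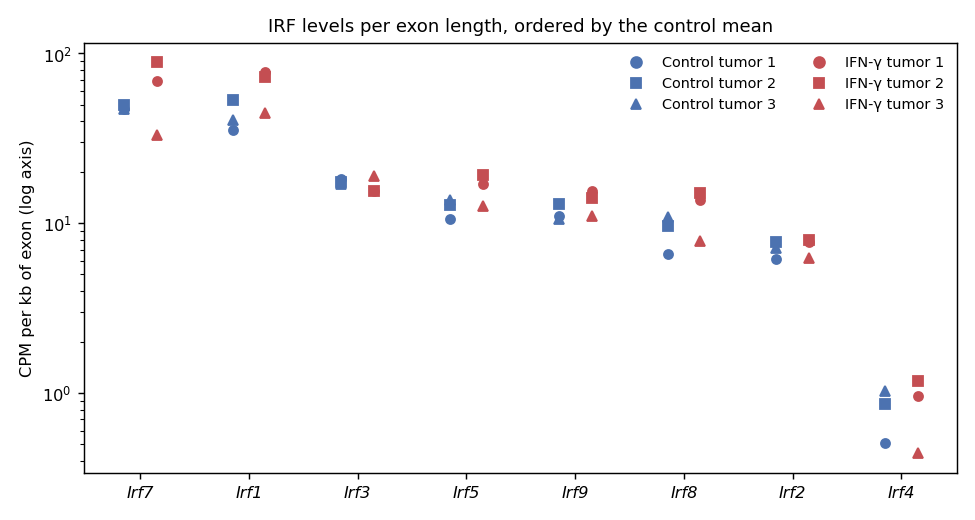
CPM per kilobase of exon (log axis) of the 8 IRF genes, ordered by their control mean, with control tumors in blue and IFN-γ tumors in red. Irf7 and Irf1 lie above the other members in every tumor, and Irf4 lies below them in every tumor.

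Members were also compared by pattern, as the root mean square difference of centred log2 values over the 6 tumors, a description with no test. The closest pair was Irf2 and Irf9, at 0.13, both of which varied little. Irf5 and Irf8, both factors of myeloid cells, came next at 0.15. Irf3 and Irf4 were farthest apart, at 0.56. Outside the family, among 9696 genes with a named symbol and a mean of at least 10 CPM, the genes most like Irf1 were Pdcd1, the inhibitory receptor of activated T cells, at 0.056, and then Tbc1d9 and the receptor Tlr1. Those most like Irf7 were Svep1 (0.041), Gzmb, the granule protease of cytotoxic lymphocytes (0.090), and Ifi44l, an interferon-induced gene (0.11). For Irf4 they were Clec10a, a lectin of dendritic cells and macrophages (0.062), Sema4a and Rasgrp1. Irf8 was nearest to Plcg2 (0.077), a phospholipase of immune receptor signalling, then Dram1 and Slc43a3. Irf5 was nearest to Psap (0.042), a lysosomal protein precursor, then Milr1 and Dse. The flatter members had many genes as near: 7176 genes lay within 0.2 of Irf3, whose nearest were Paip2b, Src and Sqstm1, and 4865 within 0.2 of Irf2, whose nearest were Slc26a2, Ssh2 and Pde8a. For Irf9 the number was 2331, with Spata13, Plekho2 and Lpin2 nearest. It was 666 for Irf5, 205 for Irf8, 201 for Irf1, 83 for Irf7 and 44 for Irf4, so many genes shared these patterns too.

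Few of the genes that activate IRFs passed the test. The list held 21 sensors, adaptors and kinases, all tested. With all 6 tumors edgeR called 0 in either direction, and the median log2 fold change was 0.063. Without IFN-γ tumor 3, 2 of 21 were higher, the endosomal RNA sensor Tlr7 and the DNA sensor Tlr9, and the median was 0.12. Over all genes tested without that tumor, 2.46% were higher and the median was -0.016. For Tlr7 the change was 0.62 with all 6 tumors and 0.80 without that tumor (edgeR, adjusted p = 0.35 and 0.019). For Tlr9, named after its values were seen, it was 0.56 and 0.93 (edgeR, adjusted p = 0.68 and 0.024). Tlr7, which signals to Irf5 and Irf7, had 16.9, 19.0 and 20.3 CPM in the control tumors and 35.9, 29.8 and 20.7 CPM in the IFN-γ tumors. Every IFN-γ tumor was thus above every control for Tlr7, though IFN-γ tumor 3 only just. Irak4, a kinase below Toll-like receptors, had 25.1 to 26.7 CPM in the control group and 29.1 to 33.3 in the IFN-γ group, a change of 0.25 with all 6 tumors and 0.28 without IFN-γ tumor 3 (edgeR, adjusted p = 0.40 and 0.20). Nlrx1, a regulator at the mitochondrion, had 6.50 to 7.89 and 7.98 to 11.2 CPM, a change of 0.42 and 0.55 in the same fits (edgeR, adjusted p = 0.48 and 0.13). The adaptor Sting1 had 84.9 to 95.8 and 89.5 to 123 CPM, a change of 0.24 and 0.35 (edgeR, adjusted p = 0.53 and 0.070). Without IFN-γ tumor 3, Sting1 passed in DESeq2 (adjusted p = 0.020).

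Among 16 partners on DNA and co-repressors, edgeR called 0 with all 6 tumors. Leaving out IFN-γ tumor 3, it called 4 higher (against 2.46% of all genes tested) and 0 lower, with a list median of 0.19 in both fits. Batf2, which pairs with Irf1, had 23.5, 36.3 and 31.2 CPM in the control tumors and 61.5, 58.3 and 32.5 CPM in the IFN-γ tumors, the same arrangement of tumors as Irf1. Its log2 fold change was 0.74 (edgeR, adjusted p = 0.37) with all 6 and 0.97 (edgeR, adjusted p = 0.020) without IFN-γ tumor 3. Spi1, the PU.1 protein that recruits Irf4 and Irf8 to DNA, had 42.6 to 48.1 CPM in the control group and 62.2, 69.0 and 44.1 CPM in the IFN-γ tumors, and changed by 0.35 with all 6 tumors and 0.50 without IFN-γ tumor 3 (edgeR, adjusted p = 0.49 and 0.025). Batf did not pass in either fit (0.57 and 0.75; edgeR, adjusted p = 0.48 and 0.11). The other 2 that passed, both named after their values were seen, were Stat2, the partner of Irf9 in ISGF3, and Ikzf1. Stat2 changed by 0.45 with all 6 tumors and 0.67 without IFN-γ tumor 3 (edgeR, adjusted p = 0.57 and 0.046), and Ikzf1 by 0.39 and 0.64 (edgeR, adjusted p = 0.62 and 0.025). Irf2bp2, a co-repressor that binds Irf2, was lower in every IFN-γ tumor than in every control, at 83.9 to 87.5 against 91.3 to 98.2 CPM, and did not pass in either fit (-0.15 and -0.17; edgeR, adjusted p = 0.49 and 0.29).

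The 21 IFN-γ targets with known Irf1 input summed to 1707, 2729 and 2289.9 CPM in the control tumors and 4258, 4566 and 2149 CPM in the IFN-γ tumors. As for Irf1, IFN-γ tumors 1 and 2 were above every control and IFN-γ tumor 3 within their range. With all 6 tumors 20 of 21 had a fold change above 0, against 50.4% of all genes tested. The list median was 0.58, beside 0.0015 over all genes tested, and edgeR called 0. DESeq2 called 1, Socs1. Without IFN-γ tumor 3, edgeR called 14 of 21 higher, with a median of 0.80, beside 2.46% and -0.016 over all genes tested. The guanylate-binding protein gene Gbp2 had 209, 376 and 293 CPM in the control tumors and 728, 720 and 360 CPM in the IFN-γ tumors. Its change was 1.04 with all 6 tumors and 1.30 without IFN-γ tumor 3 (edgeR, adjusted p = 0.30 and 0.016). In the same fits Psmb10, an immunoproteasome subunit, had 0.60 and 0.80 (edgeR, adjusted p = 0.39 and 0.021), and the cytokine Il15 had 0.39 and 0.48 (edgeR, adjusted p = 0.37 and 0.066).

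Socs1, the inhibitor that shuts down interferon signalling, was arranged unlike Irf1. It had 17.8, 17.1 and 17.3 CPM in the control tumors and 25.3, 23.5 and 27.2 CPM in the IFN-γ tumors. All 3 IFN-γ tumors were above all 3 controls, and IFN-γ tumor 3 was the highest. The log2 fold change with all 6 tumors was 0.54 ± 0.10 (SE; edgeR, adjusted p = 0.14) and 0.48 without IFN-γ tumor 3 (edgeR, adjusted p = 0.053), and the adjusted p over all alternatives ran from 0.013 in DESeq2 to 0.52.

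The 21 antiviral targets of ISGF3, Irf3 and Irf7 summed to 1305, 1514 and 1396 CPM in the control tumors. Their sums in the IFN-γ tumors were 1889, 2080 and 1089.5 CPM, so IFN-γ tumor 3 was below every control, as it was for Irf7. With all 6 tumors edgeR called 0 and the median log2 fold change was 0.24. Leaving out IFN-γ tumor 3, it called 10 of 21 higher (against 2.46% of all genes tested) and 0 lower, with a median of 0.44. Ifit3, an RNA-binding antiviral protein gene, had 42.6, 43.8 and 41.0 CPM in the control tumors and 64.9, 77.3 and 41.8 CPM in the IFN-γ tumors. Its change was 0.53 with all 6 tumors and 0.73 without IFN-γ tumor 3 (edgeR, adjusted p = 0.40 and 0.011). In the same fits Oasl2 had 0.45 and 0.69 (edgeR, adjusted p = 0.56 and 0.014), Ifit1 0.35 and 0.54 (edgeR, adjusted p = 0.54 and 0.025), and Bst2, the tetherin gene, 0.37 and 0.57 (edgeR, adjusted p = 0.57 and 0.033).

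Interferon genes, among them type I genes that Irf3 and Irf7 drive, were barely seen. Of the 8 listed, Ifna1, Ifna2, Ifne, Ifnl2 and Ifnl3 were at 0 in every tumor. Ifnb1 had 0 to 3 counts, and Ifna4 had 3 counts in control tumor 1 and 0 elsewhere. Ifng, the gene of IFN-γ itself, was the only one tested, with 7, 13 and 23 counts in the control tumors and 27, 41 and 5 in the IFN-γ tumors. Its log2 fold change was 0.81 with all 6 tumors and 1.27 without IFN-γ tumor 3 (edgeR, adjusted p = 0.75 and 0.23). It was 1.29 without control tumor 3, 0.51 without control tumor 1 and 0.18 without IFN-γ tumor 2, and passed in none of these. It counts transcripts of the tumor's own cells and not the injected protein.

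Irf4, Irf5 and Irf8 are made mostly by immune cells, and markers of such cells are set beside them. The 10 macrophage markers summed to 2179, 2409 and 2294 CPM in the control tumors and 3079, 3364 and 2314 CPM in the IFN-γ tumors. The sum was thus high in the same 2 IFN-γ tumors as Irf1, Irf5, Irf7, Irf8 and Irf9. In those 2 tumors 8 of the 10 markers were above every control, against 18.1% of all genes tested. The other 2, Mrc1 (368 and 369 against 391 to 433 CPM) and Cd14 (76.8 and 77.2 against 82.2 to 86.8 CPM), were below every control, against 15.6% of all genes tested. Without IFN-γ tumor 3, 6 of these 10 markers rose in edgeR, against 2.46% of all genes tested. With all 6 tumors 0 did (DESeq2 called 3). The 7 cDC1 markers summed to 226 to 250.2 CPM in the control group and to 350.0, 357 and 258 CPM in the IFN-γ tumors. Cadm1 alone made 48.3% to 60.1% of this sum. The other 6 markers summed to 90.2 to 118 CPM in the control group and to 179, 185 and 105 CPM, so that IFN-γ tumor 3 lay within the control range, as for Irf1 and Irf8. Monocyte markers, at 257 to 363 CPM in the control group, reached 524, 607 and 287 CPM. The markers of cDC2 and migratory dendritic cells, which use Irf4, summed to 299 to 343 CPM in the control group and to 413, 438 and 328 CPM. Neutrophil markers summed to 29.6 to 37.8 CPM in the control group and to 44.5, 47.5 and 36.9 CPM. Csf3r alone made 56.4% to 87.3% of this sum. The other 5 neutrophil markers summed to 16.5, 4.85 and 7.31 CPM in the control tumors and to 5.63, 8.86 and 12.9 CPM, with overlapping groups. The full monocyte, cDC2 and neutrophil sums were above every control in IFN-γ tumors 1 and 2 and within the control range in IFN-γ tumor 3. By gene, 3 of 5 monocyte, 2 of 6 cDC2 and 1 of 6 neutrophil markers were above every control in IFN-γ tumors 1 and 2. Over all genes tested that share was 18.1%, so the neutrophil count was near it. Fscn1 alone made 40.2% to 53.6% of the cDC2 sum. The cDC2 markers Cd209a, Clec10a, Ccr7 and Il4i1 were lowest of all tumors in IFN-γ tumor 3, as Irf4 was, though Clec10a and Ccr7 only just. The other 2 cDC2 markers were not. In IFN-γ tumor 3 Sirpa had 137 CPM, against 127 to 146 in the control group, and Fscn1 175.8 CPM, against 144.0 to 175.6. The part of these cell types in the IRF changes was not tested.

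Set against the macrophage markers, Irf5 and Irf8 showed little difference between the groups. The log2 ratio of Irf5 to the summed macrophage CPM was -6.13, -6.01 and -5.82 in the control tumors and -5.94, -5.89 and -5.95 in the IFN-γ tumors, and the means differed by 0.058. For Irf8 the means differed by 0.077, with controls from -5.53 to -4.90 and IFN-γ tumors from -5.36 to -4.98. The same ratio for Irf1 was -3.95, -3.51 and -3.82 in the control tumors and -3.32, -3.53 and -3.71 in the treated ones, and its means differed by 0.24, with control tumor 2 above 2 of the treated tumors. For Irf7 the ratio was -3.69 to -3.61 in the control group and -3.56, -3.33 and -4.20 in the IFN-γ tumors. The Irf7 means differed by -0.034, the smallest difference of the 4, with IFN-γ tumors on both sides of the controls. The last 2 ratios were added after the data were seen, and none of the 4 was tested.

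Irf4 is found in lymphocytes and dendritic cells, and its low value in IFN-γ tumor 3 went with low T cell and NK cell markers. NK cell markers summed to 15.7 to 29.4 CPM in the control group and to 33.9, 39.3 and 12.2 CPM in the IFN-γ tumors, with Klra8 at 0 throughout. B cell markers stood at 12.7 to 20.6 CPM and plasma cell markers at 150.1 to 171 CPM over the 6 tumors, of which Xbp1 alone made 69.6% to 73.3%, and 0 genes of either list passed in edgeR in either fit. Plasmacytoid dendritic cell markers, of a cell rich in Irf7, stood at 151 to 176 CPM in the control group and 158 to 172 CPM in the IFN-γ group, and 0 of the 6 tested passed. Tcf4, which other cells also express, made 87.3% to 93.5% of that sum. The other 6 markers summed to 9.82 to 19.4 CPM in the control group and to 15.6, 20.7 and 11.7 CPM in the IFN-γ tumors. Which of these cells, or the CT26.WT cells themselves, carried each IRF transcript cannot be told from bulk RNA.

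**Figure D4:**
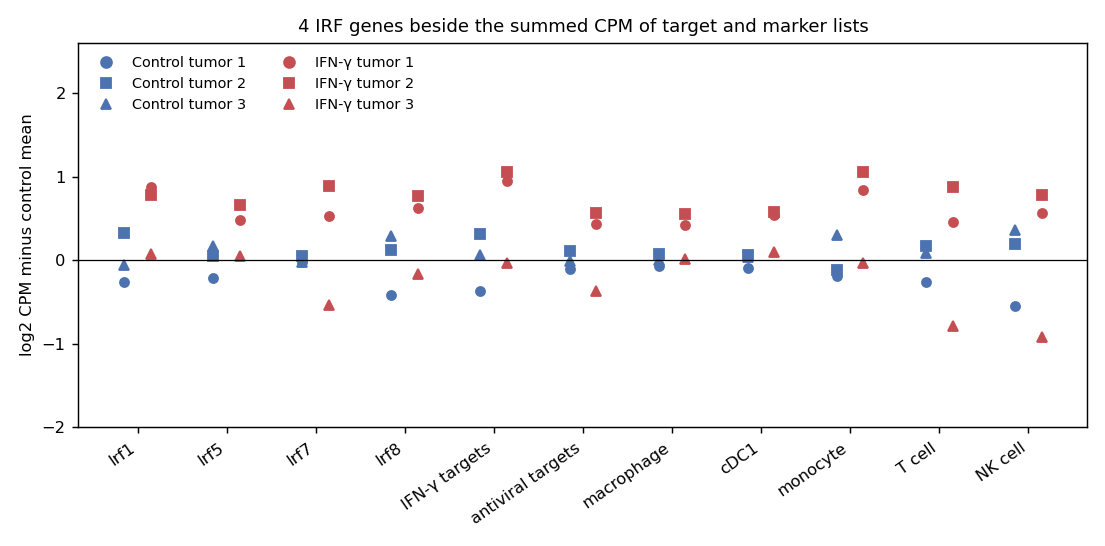
log2 CPM minus the control mean (y axis) of 4 IRF genes and of the summed CPM of target and marker lists in each tumor, with control tumors in blue, IFN-γ tumors in red, and circle, square and triangle for tumors 1, 2 and 3. IFN-γ tumors 1 and 2 lie above all controls in every column, and IFN-γ tumor 3 lies below all controls for Irf7, the antiviral targets, and the T cell and NK cell markers.

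Among non-immune cells, endothelial markers summed to 234 to 290.0 CPM in the control group and 182 to 251 CPM in the IFN-γ group, and fibroblast markers to 2855 to 3960 and 2819 to 3995 CPM. Skeletal muscle markers stood at 121 to 813 CPM in the control group and 140 to 432 in the IFN-γ group. The 6 adipocyte markers stood at 6.09 to 11.8 CPM in the control group and 26.5, 58.9 and 45.6 CPM in the IFN-γ tumors, with all IFN-γ tumors above all controls.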

How the data were processed

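RNA was measured in 3 control and 3 IFN-γ tumors, grouped by the labels. The values are raw read counts per gene, as the authors deposited them. The submitters' processing notes name HISAT2 and mm10, and the counter, annotation and strandedness are not given in the sources used here. The labels number the tumors but do not say that each came from its own mouse, so p-values measure the spread between these samples, which may be in part technical.

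Identifiers were matched to GENCODE M21 (GRCm38), which held 99.53% of them, for positions and exon lengths, and promoter windows came from the RefSeq table. Counts were filtered with filterByExpr, scaled by TMM and tested over all genes with edgeR 4.0.16 (R 4.3.3; quasi-likelihood test, two-sided, Benjamini-Hochberg adjustment, threshold 0.05). Standard errors were the log2 fold change divided by the square root of F. The scripts were tested on simulated data. DESeq2 1.42.0, limma 3.58.1 (voom), other scalings and filters, a replicate block, and fits leaving out 1 tumor each were alternatives. The fits leaving out each tumor in turn were planned, and the one without IFN-γ tumor 3 was singled out after seeing the data. The fits by DESeq2 and limma-voom without IFN-γ tumor 3 were added after seeing the data. Ratios used a pseudocount of 0.5 CPM.

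The members, the 5 pathway lists and the 16 marker lists were chosen with earlier results of these data known. Named were the 8 members, the 4 genes of smallest p in each pathway list and the 3 genes nearest to each member in pattern. Correlations of log2 CPM between libraries were 0.980 to 0.993, and no pair was a duplicate (chi-square per gene of at least 6.18). The deviations of same-numbered tumors from their group means correlated at -0.24, -0.0047 and -0.22, and the main fit has no pairing.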

Additional observations from a re-analysis of the deposited data

How the results depend on the processing

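IFN-γ tumor 3 decided which members passed. Over the fits leaving out 1 tumor each, 0 to 3 members, 4 to 381 genes and 0 to 30 pathway genes were higher, and 2 to 112 genes were lower, each highest number being that without IFN-γ tumor 3. Without that tumor, DESeq2 called 4 members, 595 genes and 39 pathway genes higher and 233 genes lower, and limma-voom 3, 422, 31 and 107. With all 6 tumors, against 12 genes higher and 5 lower in edgeR, DESeq2 gave 118 and 73 (1 pathway gene higher) and no filter gave 150 and 70 (3 pathway genes higher), while library size alone gave 7 higher and limma-voom 3 lower. With a replicate block, 5 genes were higher and 2 lower, and 0 members and 0 pathway genes were called in either direction. The causes of these shifts were not tested, apart from the omitted tumor.

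The log2 fold change of Irf2 ran from -0.024 to 0.16 and that of Irf4 from -0.19 to 0.41 over the fits leaving out 1 tumor. These were the 4 reversals (Irf2 -0.024 and -0.0087, Irf4 -0.13 and -0.19) among 120 comparisons of the 8 members. Of the rest, 106 kept direction and side of the threshold and 10 newly passed it. For the 17 named pathway genes, 221 of 255 comparisons kept both and 34 newly passed. The median log2 fold change of all genes moved by less than 0.1 under every scaling.

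With 3 tumors a group, and 1 of them apart from the other two, the members' standard errors of 0.096 (Irf3) to 0.39 (Irf4) on the log2 scale set the size of change that could be seen. Ifnb1 and Ifna4, with 0 to 3 counts a tumor, allow no comparison.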
